A study of Mus musculus with 4 samples.

Results

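The genes of peptide storage and secretion were examined in 4 RNA-seq libraries, each made from 50 cells sorted from the spinal cord of 1 mouse. The set comprised 40 genes, found by exact gene name among 42458 rows of the count table: 8 granins and granin-like proteins, 4 peptide-processing enzymes, 4 proteins of vesicle release or membrane, and 24 precursors of neuropeptides other than opioids. The mice were wild-type C57BL6/J animals given AAV2-CAG-tdT, a viral vector that makes infected cells fluoresce red with tdTomato, into the cerebral ventricles. Live tdTomato-positive cells of the ependymal region were sorted so that neurons in contact with the cerebrospinal fluid (CSF-cNs) would be enriched, with a C57BL6 preparation as the negative control of the sort, which was not analysed here. All 4 libraries belong to this single group, so levels and their spread between mice can be given, but no contrast between conditions. The CAG promoter is active in most cell types and does not by itself restrict the label to neurons. The labels give no age.

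Peptide-secreting cells pack prohormones into dense-core vesicles, where granins condense the cargo, convertases cut it at basic residues, a carboxypeptidase trims the ends and an amidating enzyme completes many peptides. Calcium then releases these vesicles, at sites that are not limited to synapses. CSF-cNs line the central canal with an apical process in the fluid. In lamprey such cells contain somatostatin, and in zebrafish they make urotensin-related peptides, so both peptide families were among the precursors examined.

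The transgene and CSF-cN markers differed widely between the libraries, and markers of other cells were abundant. Total counts were 83007030 to 115479640 per library, and levels are given as CPM, counts per 1000000 after TMM normalization. A gene with no count could still lie at 0.0278 to 0.0348 CPM, the worth of 3 counts, which covers counting error only. Values of 4 mice are given in the order of mice 1, 2, 3 and 4 throughout. The row of the tdTomato transgene had 5, 58, 13533 and 153379 counts, uncertain because reads may be shared with another construct that holds the same reporter. Pkd2l1, the channel gene that marks CSF-cNs, stood at 17.9, 0.193, 664 and 690 CPM. The list of 9 CSF-cN markers, of which 8 had counts and P2rx2 had none, summed to 20.3, 12.9, 941 and 846 CPM. Pkd2l1 made up most of this sum in mice 3 and 4, and another member, Tal1, was at 0.898, 10.3, 10.8 and 14.8 CPM. All 10 microglial markers had counts in each of the 4 libraries and summed to 36392 to 62016 CPM. The 10 oligodendrocyte markers, all with counts, summed to 15065, 238, 19260 and 459 CPM, and the 10 astrocyte markers, all with counts, to 1253, 161, 1348 and 301 CPM. The libraries of mice 1 and 2 therefore held little of the transgene and low sums of the markers the sort was meant to enrich. Tal1 in mouse 2 was an exception, near its level in mouse 3. The main results are given with and without mice 1 and 2. Pan-neuronal markers summed to 129, 105, 1087 and 410 CPM and fibroblast markers to 11.5, 0.203, 1023 and 116 CPM. Ependymal markers summed to 1.72, 3.38, 21.3 and 74.5 CPM, so these sums too were highest in mice 3 and 4. Single members differed. Dcn gave 989 and 108 CPM of the fibroblast sum in mice 3 and 4, while Col1a2 was at 6.96, 0.0107, 5.04 and 0 CPM. Among pan-neuronal markers, Map2 was lowest in mouse 4 (0.401 CPM) and Nefl highest in mouse 2 (14.5 CPM).

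The 40 genes together reached 336, 30.0, 1553 and 1491 CPM, or 0.0314%, 0.00294%, 0.161% and 0.156% of all counts. At 10 CPM or more stood 1 gene in mouse 1 (Cpe), 0 in mouse 2, 13 in mouse 3 and 10 in mouse 4. No count was recorded in any library for 10 of the 40, all of them neuropeptide precursors. Of the remaining 30, 28 had at least 10 counts in total and were tested against a level of 10 CPM. The median of the mean level was 2.66 CPM over these 28, 0.435 CPM over all 40 and 9.52 CPM over all 18522 genes tested. In 17 of these 28 the highest and second-highest values lay in mice 3 and 4, whereas this was so for 18.9% of all 18522 genes tested. By role, this held for 7 of 8 granins, 3 of 4 enzymes, all 4 vesicle proteins and 3 of the 12 tested precursors. The 12 untested genes are not in this count, and the parts that the number of CSF-cNs and other cells in each library play in it were not tested. In such pooled cells, fewer cells of a type and less RNA per cell cannot be told apart.

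**Figure D1:**
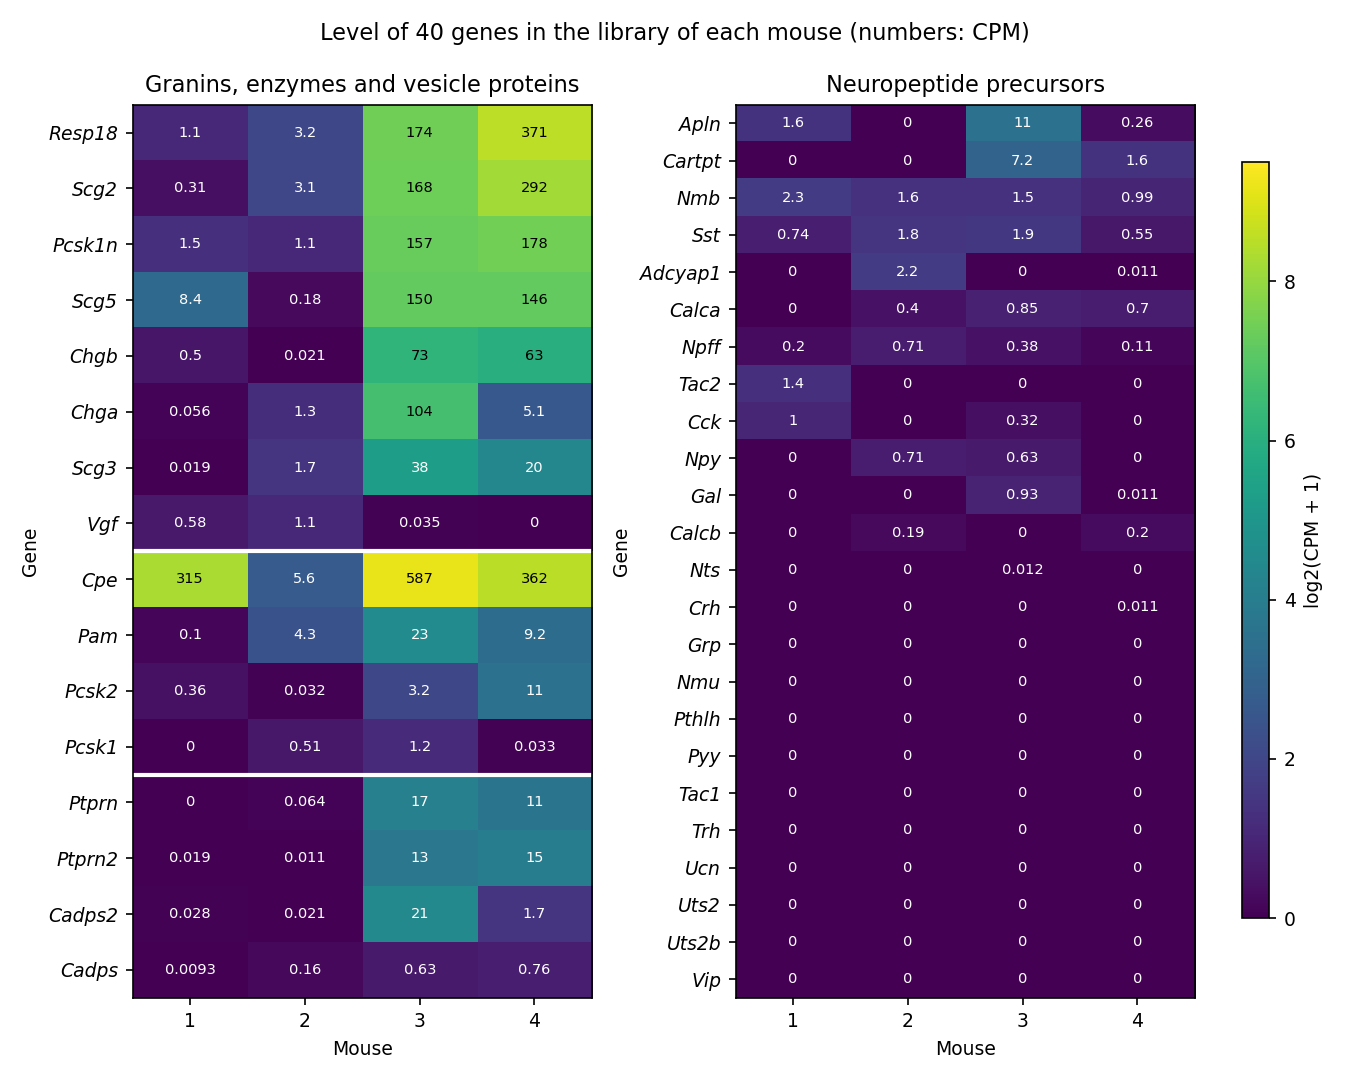
Level of the 40 genes in each library, coloured by log2(CPM + 1) and labelled with CPM, with genes as rows ordered by mean level within each role and mice 1 to 4 as columns; white lines part granins, enzymes and vesicle proteins. Resp18 and Scg2 reached 371 and 292 CPM in mouse 4, whereas no neuropeptide precursor exceeded the 10.5 CPM of Apln in mouse 3.

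Granins and granin-like genes, summed over all 8, were high in mice 3 and 4 and low in mice 1 and 2. Their summed level was 12.5, 11.8, 863 and 1076 CPM (491 ± 559, mean and SD, n = 4), and its mean was 969 CPM without mice 1 and 2 and 296 CPM without mouse 4. The summed pan-neuronal and fibroblast markers, the latter mostly Dcn, were highest in the same libraries as well as those of CSF-cNs. Their part in this level was not tested. Resp18, which codes for a luminal protein of the regulated secretory pathway related in sequence to Ptprn, was at 1.14, 3.22, 174 and 371 CPM, and 40 of its exonic bases are shared with the antisense gene Gm28902, not analysed here. Scg2, which codes for the granin secretogranin II, was at 0.306, 3.05, 168 and 292 CPM. Both genes were therefore low in mice 1 and 2 and highest in mouse 4. Pcsk1n, the gene of proSAAS, an inhibitor of the convertase Pcsk1, was at 1.5, 1.15, 157 and 178 CPM. Scg5, whose product is the chaperone of the convertase Pcsk2, was at 8.45, 0.182, 150 and 146 CPM. These 2 regulators of convertases differed little between mice 3 and 4.

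These 4 genes passed the level test. With edgeR's quasi-likelihood test over all 18522 genes, the log2 level relative to 10 CPM was 3.78 for Resp18 (SE 0.65, adjusted p = 0.0033) and 3.53 for Scg2 (SE 0.72, adjusted p = 0.0076). It was 3.08 for Pcsk1n (SE 0.71, adjusted p = 0.014) and 2.93 for Scg5 (SE 0.72, adjusted p = 0.019). These SEs were derived from each level and its F statistic. DESeq2 gave nearly the same levels with larger SEs, 1.27 to 1.37 for these 4 genes. Together with Cpe, described below, 5 of the 28 tested genes of the set were called above 10 CPM, while edgeR called 36.7% of all genes tested. Each of the 4 granin-like genes was at 10 CPM or more in mice 3 and 4 alone, so these calls rest on 2 libraries. Without mouse 3, Scg2, Pcsk1n and Scg5 were not called (adjusted p = 0.052 to 0.15), and without mouse 4 none of the 4 was (adjusted p = 0.093 to 0.14). limma-voom, a test on log-scale values, called none of the 4 (adjusted p = 0.51 to 0.87).

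In GRCm38, Resp18 occupies bases 75272199 to 75278415 and Scg2 bases 79434669 to 79440120 of chromosome 1, both read from the minus strand. Pcsk1n occupies bases 7919822 to 7924410 of chromosome X (plus strand) and Scg5 bases 113776362 to 113829121 of chromosome 2 (minus strand). Counts grow with transcript length in these full-length libraries, so genes were compared with one another per kb of exon. On that scale Resp18, with 1032 bases of exon, had the highest mean of the set, 133 CPM per kb. Cpe followed with 122 CPM per kb, and the order of these means rests on mouse 4, without which Resp18 averaged 57.7 and Cpe 116 CPM per kb. Cpe was the higher of the pair in mice 1 and 3 (121 and 225 CPM per kb, against 1.10 and 169 for Resp18). Scg5 (48.5 CPM per kb), Scg2 (46.0 CPM per kb) and Pcsk1n (38.5 CPM per kb) came next. The spread between mice was large beside these means, with an SD of 170.3 CPM per kb for Resp18, 91.8 for Cpe, 52.9 for Scg5, 56.1 for Scg2 and 43.9 for Pcsk1n (n = 4 each).

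The remaining granins were not separated from 10 CPM. Chgb, the gene of chromogranin B, was at 0.500, 0.0214, 72.7 and 63.5 CPM (log2 level 1.77, SE 1.03, edgeR adjusted p = 0.23). Chga, the gene of chromogranin A, was at 0.0556, 1.34, 104 and 5.09 CPM (log2 level 1.46, SE 1.06, edgeR adjusted p = 0.31). Its values in mice 3 and 4 were far apart, with 95% Clopper-Pearson intervals of 101 to 106 CPM in mouse 3 and 4.64 to 5.58 CPM in mouse 4, which cover counting error only. Scg3, whose product tethers chromogranin A to the vesicle membrane, was at 0.0185, 1.69, 38.1 and 19.9 CPM (log2 level 0.58, SE 1.08, edgeR adjusted p = 0.66). Without mice 1 and 2, an alternative added after the data were seen, Chgb, Chga and Scg3 were called as well (edgeR adjusted p = 3.3e-04, 0.049 and 0.018). That fit called 8 of 25 tested genes of the set above 10 CPM, against 37% of all genes tested, and it keeps only the libraries in which the granins were high, so its calls follow from the choice of samples.

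Vgf, the gene of a granin-like precursor of several peptides, did not share this distribution. It had 63, 104, 3 and 0 counts, or 0.583, 1.11, 0.0348 and 0 CPM, so it was at or below 3 counts in the libraries in which the other 7 genes of its group were highest. At a count of 0, mouse 4 allowed a Vgf level of up to 0.0334 CPM by counting error alone.

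**Figure D2:**
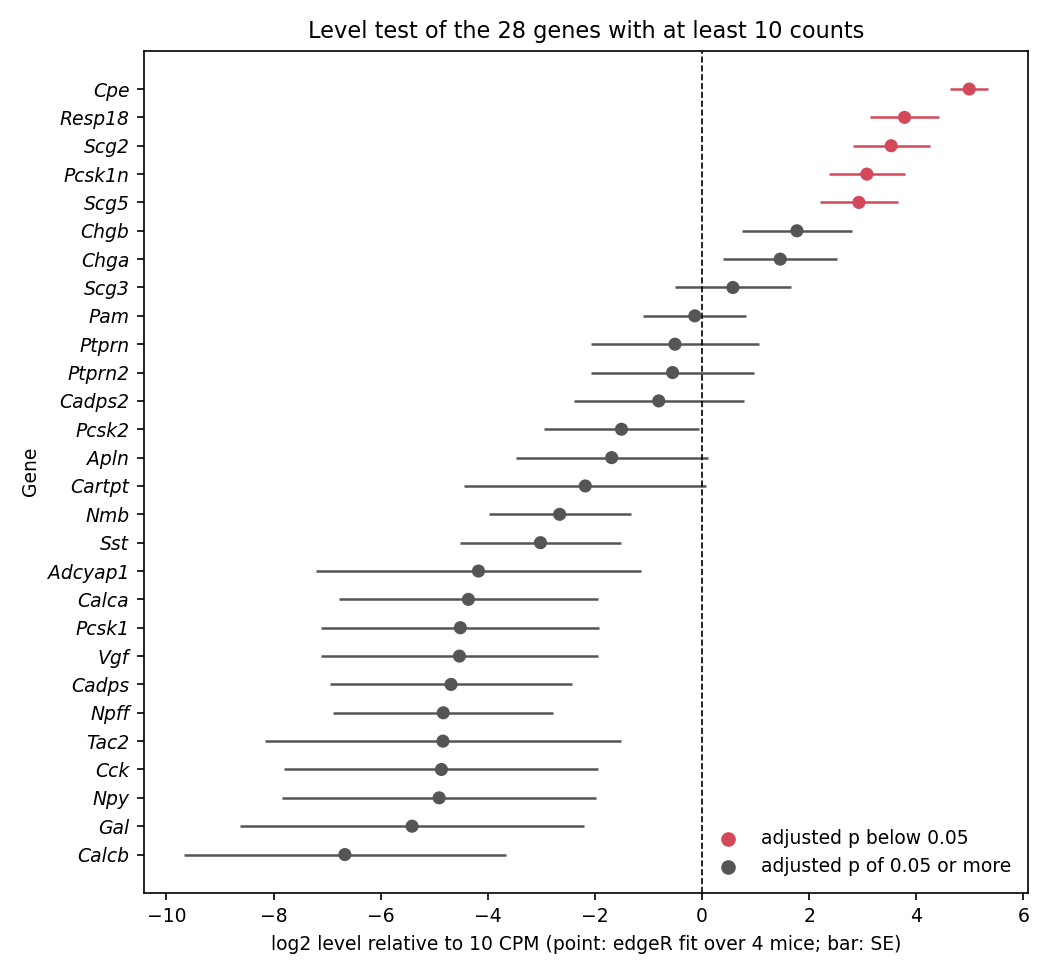
Fitted log2 level relative to 10 CPM of the 28 genes with at least 10 counts in total, from edgeR's quasi-likelihood fit over 4 mice. Points are levels, bars are SEs derived from each level and its F statistic, and red marks an adjusted p below 0.05. Cpe at 4.99, Resp18 at 3.78, Scg2 at 3.53, Pcsk1n at 3.08 and Scg5 at 2.93 are called, and no gene below 0 is called.

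Promoters were inspected because many granin and peptide genes carry the cAMP response element (CRE), the binding site of CREB-type factors. RefSeq promoters of build GRCm38.p6, from 250 bases before to 50 after each start, were matched for 34 of the 40 genes in 38 windows. The full palindrome TGACGTCA was found in those of 6 genes, or 17.6% of the 34, and in 1.79% of all 32851 promoters. The shorter core TGACG on either strand, which every full element also contains, was found in 20 of the 34 genes, against 20.8% of all promoters. The letters TATAAA of the TATA box, on the gene's strand, were found in 5 genes, against 8.32% of all promoters. They were matched exactly anywhere in the window, from position -225 (Uts2) to 6 (Chga) from the start. Genes were counted over all their windows but the background per promoter, so these shares differ in unit. The set includes genes chosen as peptide genes, so these counts describe the list and were not tested. The elements follow 5′ to 3′ on the gene's strand, with the full palindrome in capitals, because the same letters occur in granins, a convertase and precursors of very different level. Chga is added for comparison, and its capitals mark the core alone.
Scg2: gctgagccggTGACGTCAgcgtggaatg
Chgb: ggctgctccgTGACGTCAgggctgagcg
Pcsk1: caggtagatcTGACGTCAagagatggct
Cartpt: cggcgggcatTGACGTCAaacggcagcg
Sst: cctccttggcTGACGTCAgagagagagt
Ucn: tgttcttcgcTGACGTCAgtcggagctg
Chga: ggcggtcctaTGACGtaatttcctgggt

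These 28-base windows lie at chr1:79440077-79440104 (minus strand) for Scg2, chr2:132781560-132781587 (plus) for Chgb, chr13:75089769-75089796 (plus) for Pcsk1 and chr13:99900778-99900805 (minus) for Cartpt. Those of Sst, Ucn and Chga lie at chr16:23890875-23890902 (minus), chr5:31138922-31138949 (minus) and chr12:102554887-102554914 (plus). The elements began 44 to 112 bases before the RefSeq start, 68 bases before it in Scg2 and 72 in Chgb. In Scg2, Chgb, Cartpt and Sst the element falls inside an exon of at least 1 GENCODE transcript that starts further upstream. Genes with the same element covered the whole range of levels in these libraries. Scg2 and Chgb reached 292 and 72.7 CPM at most, Cartpt 7.2 CPM, Sst 1.89 CPM and Pcsk1 1.21 CPM, and Ucn had no count.

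The genes called above 10 CPM were not all carriers of the element. Neither the palindrome nor the core was found in the windows of Resp18 and Pcsk1n, and Scg5 held the core without the full palindrome, while Cpe had no matched promoter. The stretch before the start is shown for Resp18 (chr1:75278416-75278665, minus strand), which had the highest mean per kb over 4 mice, and for Chga (chr12:102554691-102554940, plus strand), the granin with 104 CPM in mouse 3 and 5.09 CPM in mouse 4, with the core in capitals. A missing match says only that these letters are not in this window.
Resp18: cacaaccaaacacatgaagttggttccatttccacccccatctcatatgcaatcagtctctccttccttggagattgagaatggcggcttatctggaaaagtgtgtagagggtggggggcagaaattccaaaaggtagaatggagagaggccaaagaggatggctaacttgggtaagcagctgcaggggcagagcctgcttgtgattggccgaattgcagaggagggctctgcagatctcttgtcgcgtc
Chga: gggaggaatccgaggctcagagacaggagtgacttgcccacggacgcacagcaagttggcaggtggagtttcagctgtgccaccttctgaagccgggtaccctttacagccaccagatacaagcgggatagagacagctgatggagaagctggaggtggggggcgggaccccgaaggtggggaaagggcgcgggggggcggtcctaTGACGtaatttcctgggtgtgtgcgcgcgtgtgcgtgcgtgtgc

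Of the 4 processing enzymes, Cpe was the 1 called above 10 CPM. Cpe, the carboxypeptidase that trims basic residues from cut prohormones, was at 315, 5.62, 587 and 362 CPM (318 ± 239.6, mean and SD, n = 4). Its log2 level against 10 CPM was 4.99 (SE 0.35, edgeR adjusted p = 3.3e-05), and DESeq2 gave 5.00 with a larger SE of 0.94. It was also the only gene of the set that limma-voom called above 10 CPM (adjusted p = 0.0072), a tool that called 35.9% of all genes tested. Unlike the granins, Cpe was high in mouse 1, a library with few CSF-cN markers, and low in mouse 2 alone. The library of mouse 1 also held 15065 CPM of oligodendrocyte and 1253 CPM of astrocyte markers, while mouse 2 held 238 and 161 CPM. Most of the astrocyte sum in mouse 1 came from Aldoc (835 CPM) and S100b (298 CPM). Other astrocyte markers differed: Gfap was highest in mouse 2 (23.4 CPM), and Slc1a3, Gja1 and Aqp4 in mouse 4 (155, 10.8 and 5.45 CPM). In mouse 4, Cpe was at 362 CPM with 459 CPM of oligodendrocyte and 301 CPM of astrocyte markers. The part of these cells in the Cpe level was not tested. Cpe occupies bases 64592542 to 64693054 of chromosome 8 (GRCm38, minus strand).

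The other 3 processing enzymes were not separated from 10 CPM by edgeR. Pam, which codes for the enzyme that amidates the carboxyl end of many peptides, was at 0.102, 4.28, 22.8 and 9.19 CPM (edgeR adjusted p = 0.91). Pcsk2, the convertase that the Scg5 product assists, was at 0.361, 0.0321, 3.18 and 10.5 CPM (edgeR adjusted p = 0.41). Reads of Pcsk2 cannot be told from those of antisense partners that overlap 260 and 99 of its exonic bases, since the libraries do not keep the strand, and 1 of these rows had 298 and 408 counts in mice 3 and 4. Pcsk1, the convertase that proSAAS inhibits, was near the limit of detection, with 0, 48, 104 and 3 counts, or 0, 0.514, 1.21 and 0.0334 CPM. Both convertases thus stayed at 10.5 CPM or less in each of the 4 libraries.

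The genes of vesicle release and membrane were found almost entirely in mice 3 and 4, at modest levels. They summed to 0.0556, 0.257, 50.9 and 28.7 CPM, with a mean of 20.0 CPM over 4 mice, 39.8 CPM without mice 1 and 2 and 9.67 CPM without mouse 3. Ptprn, a receptor-type phosphatase-like protein of the vesicle membrane, was at 0, 0.0642, 16.7 and 11.5 CPM, and its relative Ptprn2 at 0.0185, 0.0107, 12.5 and 14.8 CPM. Both were present in mice 3 and 4 and had at most 6 counts in mice 1 and 2. The antisense gene Gm28294, not analysed here, shares 189 exonic bases with Ptprn. Cadps2, a factor that prepares dense-core vesicles for calcium-triggered release, was at 0.0278, 0.0214, 21.1 and 1.70 CPM. Its relative Cadps was at 0.00926, 0.161, 0.626 and 0.758 CPM. The 4 genes were not separated from 10 CPM (edgeR adjusted p = 0.17 to 0.79). No member of this group passed edgeR at an unadjusted p under 0.05. limma-voom and DESeq2 called 0 above 10 CPM, where they called 35.9% and 43.8% of all genes above it. Each called 1, Cadps, below it, of 4 and of 3 with an adjusted p, where they called 33.3% and 22.5% of all genes below.

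Within each mouse, 8 pairs of functionally linked genes were compared as the log2 ratio of CPM per kb + 0.1. Pcsk1n exceeded Pcsk1 in 4 of 4 mice, with log2 ratios of 2.97, 1.70, 7.83 and 9.58. Their mean was 5.52 with an SD of 3.78 (two-sided exact permutation by sign flips, p = 0.125, adjusted over the 8 pairs to 0.33 by Benjamini-Hochberg). Scg5 exceeded Pcsk2 in 4 of 4 mice as well, with a mean log2 ratio of 4.97 ± 2.79 (exact p = 0.125, adjusted 0.33), and Scg2 exceeded Chga in 4 of 4 (2.19 ± 2.47, exact p = 0.125, adjusted 0.33). Both regulators of convertases were thus more abundant than their partners in every library, by a margin that varied widely. Pcsk1 had no count in mouse 1 and 3 in mouse 4, and Pcsk2 had 3 in mouse 2. Per kb, Pcsk1 lay below the added 0.1 in mice 1, 2 and 4, Pcsk2 in mice 1 and 2 and Chga in mouse 1. The ratios there, the 9.58 of mouse 4 among them, depend on the added constant. With 4 mice the exact test cannot give a p below 0.125, so no pair could pass 0.05. Without mice 1 and 2 the mean log2 ratio was 8.71 for Pcsk1n over Pcsk1, 6.80 for Scg5 over Pcsk2 and 3.36 for Scg2 over Chga, and for the last it was 0.96 without mouse 4.

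The other 5 pairs did not keep 1 direction. Cpe exceeded Cpd, a carboxypeptidase of the trans-Golgi network, in 3 of 4 mice (mean log2 ratio 4.00 ± 2.97, exact permutation p = 0.25, adjusted 0.40), and the ratio in mouse 2 was -0.09. Pcsk2 over Pcsk1 was 1.02 ± 1.95 and positive in 3 of 4 mice (exact permutation p = 0.5, adjusted 0.57). Cadps over Cadps2 was -1.21 ± 1.93, set mainly by mouse 3 at -4.03 (exact permutation p = 0.375, adjusted 0.50). The added constant weighs on both ratios, since Cadps lay below 0.1 CPM per kb in all 4 mice and Pcsk1 in all but mouse 3. Ptprn over Ptprn2 was 0.54 ± 0.62 (exact permutation p = 0.25, adjusted 0.40), and in mice 1 and 2 its ratio reflects mainly the added constant, since both genes had few counts there. Chgb over Chga was 0.47 ± 2.56, positive in mice 1 and 4 and negative in mice 2 and 3 (exact permutation p = 0.75, adjusted 0.75). Its mean was -0.57 without mouse 4 and 1.54 without mice 1 and 2. Chga in mouse 1 and Chgb in mouse 2 also lay below the added constant. Without mice 1 and 2 the means of the other 4 pairs kept their sign, at 5.82 for Cpe over Cpd, 2.21 for Pcsk2 over Pcsk1, -2.46 for Cadps over Cadps2 and 1.00 for Ptprn over Ptprn2.

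**Figure D3:**
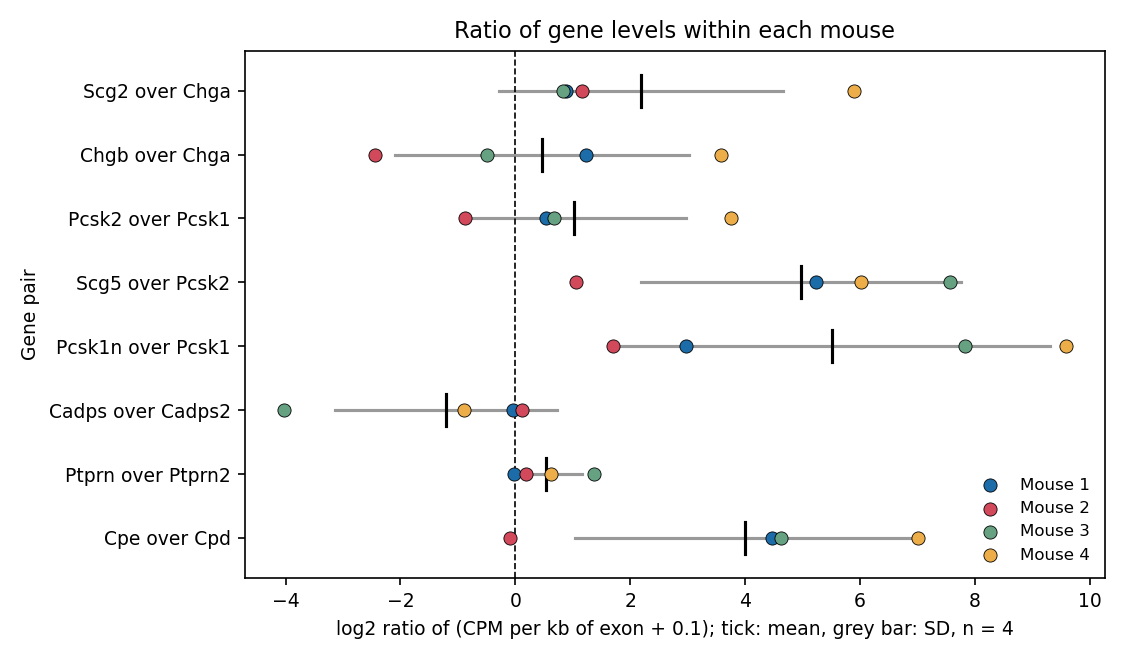
Log2 ratio of the levels of 2 genes (CPM per kb of exon + 0.1) within each of 4 mice, with 1 coloured point per mouse, the mean as a tick and the SD as a grey bar, for 8 gene pairs. All points lie right of 0 for Pcsk1n over Pcsk1, Scg5 over Pcsk2 and Scg2 over Chga.

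Neuropeptide precursors were low in all 4 libraries, including those rich in granins. They summed to 7.28, 7.52, 24.3 and 4.47 CPM, on average 10.9 CPM with an SD of 9.03 (n = 4), 14.4 CPM without mice 1 and 2 and 6.42 CPM without mouse 3, and 1 of the 24 reached 10 CPM in a single library. That gene was Apln, the precursor of the peptide apelin, at 1.64, 0, 10.5 and 0.256 CPM. Cartpt, the precursor of cocaine- and amphetamine-regulated transcript peptides and a carrier of the palindromic CRE, was at 0, 0, 7.2 and 1.63 CPM, with 621 and 146 counts in mice 3 and 4 and none in mice 1 and 2. Both had their highest value in mouse 3, but Cartpt was not detected in mouse 1 at this depth while Apln was.

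Somatostatin, the peptide known from these cells in lamprey, was recorded at a low level in each library. Sst was at 0.741, 1.77, 1.89 and 0.546 CPM (1.24 ± 0.690, mean and SD, n = 4), so the libraries with many and with few CSF-cN marker counts overlapped. Nmb, the neuromedin B precursor, was at 2.25, 1.55, 1.54 and 0.992 CPM, and its value is uncertain because 163 of its 793 exonic bases are shared with Sec11a, which had 7696 to 10082 counts per library. Npff, the precursor of a peptide that modulates pain, was at 0.204, 0.706, 0.383 and 0.111 CPM, uncertain because 327 of its 1002 exonic bases are shared with Gm28047 on the same strand, not analysed here. These 3 genes were the only precursors with counts in all 4 libraries.

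The other detected precursors lacked counts in at least 1 library. Adcyap1, which codes for the peptide PACAP, had 0, 206, 0 and 1 counts, or 2.20 CPM in mouse 2. Tac2, the neurokinin B precursor, had 151 counts (1.40 CPM) in mouse 1 and none elsewhere. Cck, the cholecystokinin precursor, was at 1.05 CPM in mouse 1 and 0.325 CPM in mouse 3, with no count in mice 2 and 4. These 3 genes thus had their highest values in mouse 1 or 2, the libraries with low CSF-cN marker sums. Npy, the neuropeptide Y precursor, had counts in mice 2 and 3 (0.706 and 0.626 CPM), and Gal, the galanin precursor, had 80 counts in mouse 3 (0.927 CPM) and 1 in mouse 4. Calca, the precursor of calcitonin gene-related peptide, was at 0, 0.396, 0.846 and 0.702 CPM, and its relative Calcb at 0, 0.193, 0 and 0.201 CPM. Markers of sensory neurons, which are known for Calca, summed to at most 0.130 CPM, with 4 of 6 at 0 in all libraries. Of 5 motor neuron markers only Slc18a3 had counts, 3.61 CPM in mouse 2, so the others, Chat among them, were at 0.

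No count was found in any library for Vip, Tac1, Grp, Nmu, Trh, Ucn, Uts2, Uts2b, Pthlh or Pyy, and Nts and Crh had 1 count each. For the urotensin genes Uts2 and Uts2b, whose relatives mark these cells in zebrafish, a count of 0 allows levels of up to 0.0278 to 0.0348 CPM. This bound covers counting error only, so it does not settle that they are absent. Of the 12 tested precursors edgeR called 0 above 10 CPM, with or without adjustment of p. After adjustment it called 36.7% of all genes tested above. limma-voom and DESeq2 also called 0 precursors above, where they called 35.9% and 43.8% of all genes. edgeR also called 0 below, but on simulated data this test called no gene set far below 10 CPM, so a level that it did not call below 10 CPM may still be low. Below 10 CPM, limma-voom called 11 of 12, against 33.3% of all genes tested, and DESeq2 called 6 of the 9 with an adjusted p, against 22.5% of all genes tested. Over the whole set edgeR called 0 of 28 below 10 CPM and 0.664% of all genes, limma-voom called 14 and DESeq2 called 9. DESeq2 called the same 5 genes above 10 CPM as edgeR did, where it called 43.8% of all genes with an adjusted p.

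**Figure D4:**
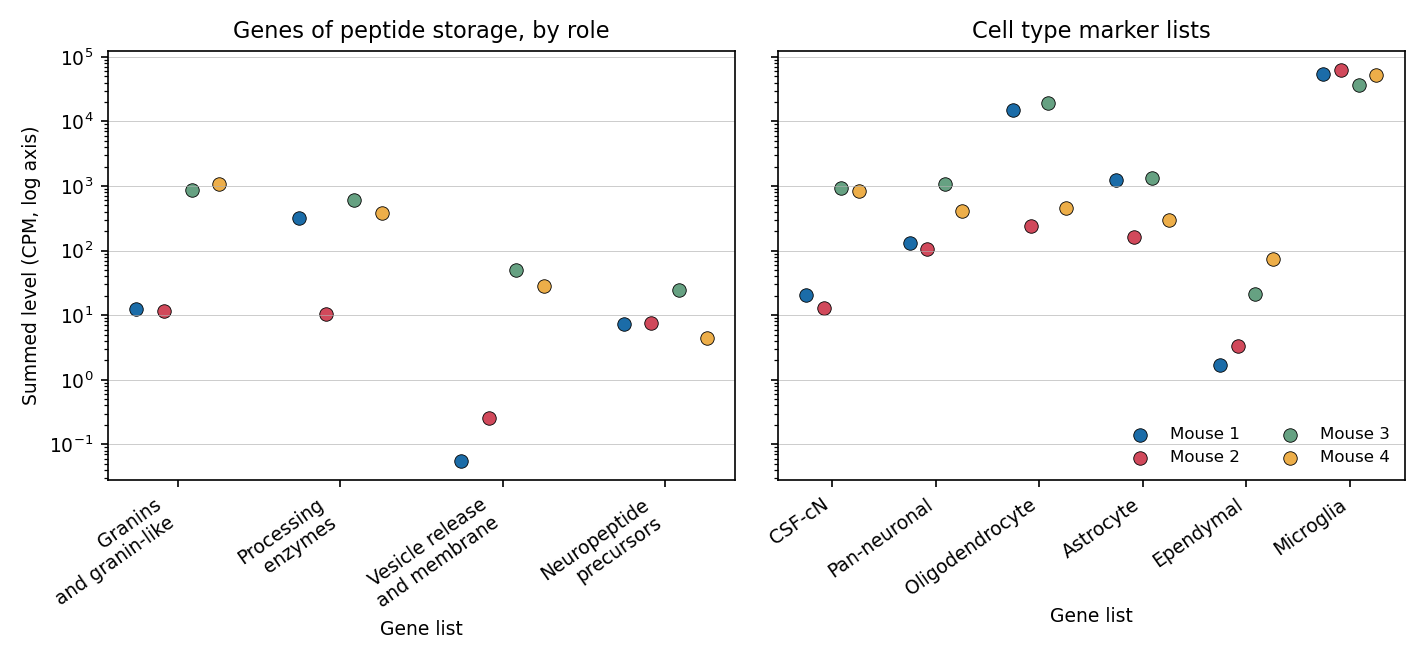
Summed level of the genes of peptide storage by role (left) and of cell type marker lists (right), with 1 coloured point per mouse on a log axis in CPM. Granins sum to 863 and 1076 CPM in mice 3 and 4. There, CSF-cN markers sum to 941 and 846 CPM and pan-neuronal markers to 1087 and 410 CPM. Precursor sums stay between 4.47 and 24.3 CPM in all 4 mice.

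Other genes of the pathway were read from lists drawn up by function. Of 13 further processing genes, 12 were tested and 5 were called above 10 CPM by edgeR, and of 27 genes of vesicle formation and release, 25 were tested and 8 were called, with 36.7% called among all genes. Those with the highest means were not restricted to mice 3 and 4. Ctsl, a cathepsin that also cuts prohormones, averaged 1565 ± 277 CPM, the sulphotransferase gene Tpst2 257 ± 49.3 CPM and the aminopeptidase gene Rnpep 80.6 ± 15.4 CPM (SD, n = 4 each). Rab2a, a small GTPase of vesicle maturation, averaged 314 ± 70.0 CPM, the SNARE genes Vamp4 and Stx6 89.1 ± 15.9 and 54.7 ± 19.1 CPM, and Arfip1, a Golgi coat-associated protein, 62.6 ± 19.2 CPM (SD, n = 4 each). These 7 were all called (adjusted p of at most 3.3e-05). Their lowest value in any of the 4 libraries was 31.9 CPM, that of Stx6 in mouse 3. The libraries also held 36392 to 62016 CPM of microglial markers, and the part of microglia in the levels of these 7 genes was not tested.

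Qpct was the exception among the 4 further processing genes with the highest mean CPM. It codes for glutaminyl cyclase, which closes the amino end of some peptides, and was at 0.0278, 0.0535, 129 and 115 CPM, so it was not separated from 10 CPM over 4 mice (log2 level 2.61, SE 1.03, edgeR adjusted p = 0.10). Further genes of this kind, named after their values were seen, were Cyb561, which codes for an electron carrier of the vesicle membrane (0.00926, 0.0321, 11.7 and 23.4 CPM), and Ica1, whose product takes part in vesicle formation (0.00926, 0.0321, 29.8 and 35.6 CPM). The synaptotagmin genes Syt4 (0, 0, 38.7 and 14.4 CPM), Syt9 (0, 0.0214, 13.0 and 19.6 CPM) and Syt10 (0.0185, 0, 39.3 and 27.5 CPM) had the same libraries high and low. edgeR called none of these 6 over 4 mice, and all but Qpct were picked for this distribution, which is therefore given as a description.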

How the data were processed

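The members and gene lists were chosen with earlier results of these data known. RNA of 4 mice was analysed, each a library of 50 sorted cells made with Smart-Seq v4, 11 PCR cycles and Nextera XT, per the labels. The authors deposited whole-number counts for 42458 genes in 2 columns per mouse, and FastQC, Trim Galore, STAR, RSEM and DESeq2 with build mm10 are named in the submitters' processing notes. The notes state no role or version for these, no annotation, and not whether RSEM values were rounded. The 2 columns of a mouse differed by more than counting error (mean chi-square 1.94 to 2.19 per gene, Spearman 0.998 across genes, at most 3.52% of the sum for values of 10 CPM or more in the set) and were summed as runs of 1 library. The authors' deposited log2 table equals log2 of the summed counts divided by a size factor, plus 1, and served only as an alternative. Whether the mice share a litter or batch is not given, so p-values measure the spread between these libraries.

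Levels were tested with edgeR 4.0.16 in R 4.3.3: genes with at least 10 counts in total, TMM factors (0.935, 0.982, 1.04 and 1.05), an intercept-only quasi-likelihood model with an offset of 10 CPM, and Benjamini-Hochberg adjustment over 18522 genes at 0.05. Because the test function needs a second coefficient, the F statistic was computed from the fitted deviances, and each SE was derived from the level and its F. The step was tested on simulated data, where it called most genes set above 10 CPM and none of those set far below it. On such data it can show that a level is above 10 CPM but rarely that it is below. Each simulated gene had the same set level in all mice, so a gene set high in some mice and near 0 in others was not tried. Alternatives used limma 3.58.1 and DESeq2 1.42.0, the latter with no filter on mean counts (5 genes of the set had no adjusted p). Pairs used an exact sign-flip test over the 16 sign patterns. Exon lengths and positions were read from the GENCODE M21 annotation (GRCm38, the same assembly as mm10). Sequences came from RefSeq GRCm38.p6. The 20 genes with the highest mean, and any reaching 1 CPM, are given in every mouse. Other steps ran in Python 3.11.15 with pandas 2.3.3, scipy 1.17.1 and numpy 2.4.6, and figures were drawn with matplotlib 3.10.9.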

Additional observations from a re-analysis of the deposited data

Results flagged for a closer look

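Of 21 levels checked on the log2(CPM + 1) scale, 17 of single genes and 4 of role sums, 2 had a library far from the other 3, where chance alone gives about 1 in 20. For Cpe, mouse 2 at 5.62 CPM lay below mice 1, 3 and 4 at 315, 587 and 362 CPM, and this gap took 0.862 of the whole range, above Dixon's 95% critical value. For the sum of the processing enzymes, which Cpe dominates, mouse 2 at 10.4 CPM lay below mice 1, 3 and 4 at 316, 615 and 382 CPM, a gap of 0.833 of the range.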

How the results depend on the processing

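The count of 5 genes of the set above 10 CPM held under DESeq2, with its size factors, with library size alone, without a count filter, with a stricter one and with the first run alone. It was 1 with limma-voom, 2 per kb of exon (Cpe and Resp18, against 10 CPM per kb), 1 to 5 when a mouse was left out (2 without mouse 3, 1 without mouse 4) and 8 without mice 1 and 2. The edgeR count of 0 below 10 CPM, from a test that rarely calls low levels, became 14 with limma-voom, 9 with DESeq2, 2 with no count filter and 1 with at least 10 counts in each of 2 mice. Over the further processing genes, vesicle genes and other precursors (12, 25 and 11 tested), 13 were called above 10 CPM and 6 per kb of exon. The latter count is against 10 CPM per kb, another reference, and the share of all genes called with it is not given here. The log2 level turned negative for Scg3 with limma-voom (-2.45), per kb of exon (-0.88) and without mouse 3 (range when a mouse was left out -0.49 to 1.02), for Chga with limma-voom (-2.29), per kb of exon (-0.0021) and without mouse 3 (-2.23 to 1.91), and for Chgb with limma-voom (-2.07). The cause was not tested. Chgb over Chga ranged from -0.57 to 1.44 when a mouse was left out, and the other 7 pairs kept their sign under all alternatives run. The role sums and 17 single means moved by less than 1 SD, but that SD is wide. Of the 17 means, 8 fell by over 1.5 times without mouse 3 and 5 without mouse 4, none without mouse 1 or 2, and 14 were over 1.5 times higher without mice 1 and 2. Without mouse 3, Chga averaged 2.16 CPM (27.5 CPM over 4 mice), Cadps2 0.585 CPM (5.71 CPM) and Apln 0.632 CPM (3.11 CPM). Mice could not be paired between groups because they form 1 group.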

Other observations

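Precursors of peptides outside the set were scarce as well. Of 32 such genes, 20 had no count in any library, among them Avp, Oxt, Hcrt and Pmch. Of the 11 tested, edgeR called 0 above 10 CPM, where it called 36.7% of all genes tested. At an unadjusted p under 0.05 it was also 0 of these 11. The highest mean was that of Npb, the neuropeptide B precursor, at 37.3, 0.118, 47.9 and 0.0334 CPM. Npb was high in mice 1 and 3, as were the oligodendrocyte markers (15065, 238, 19260 and 459 CPM), and the part of those cells in it was not tested. Adm, the adrenomedullin precursor, was at 0.00926, 0.0214, 13.0 and 2.38 CPM, Edn1, the endothelin precursor, at 1.82, 6.70, 0.290 and 0.401 CPM, and Nppc, a natriuretic peptide precursor, at 2.64, 0, 0.893 and 0 CPM.

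Of the marker lists, all 10 pan-neuronal and all 10 ependymal markers had counts, 3 of the 7 fibroblast markers were at 0, and the 5 endothelial markers, of which Cdh5 was at 0, summed to 18.1, 12.2, 14.2 and 23.1 CPM.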
